A study of Mus musculus with 3 samples.

Results

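The actin and tropomyosin genes of the thin filament were examined in embryonic mouse hearts on 3 two-colour arrays. The set holds 10 genes: the actins Actc1, Acta1, Actb and Actg1, the tropomyosins Tpm1, Tpm2, Tpm3 and Tpm4, and the filament-end genes Tmod1 and Lmod2. Every gene probe that carried one of these names in any of the 3 deposited scanner files was taken, which gave 18 of the 41174 gene probes on the array. The name was present in all 3 files for each of them except 2 Tpm1 probes, which were named Tpm1 in 2 of the 3 files. Each array set RNA pooled from 2 Lrrc10-/- hearts, labelled with Cy5, against RNA pooled from 2 wild-type Lrrc10+/+ hearts, labelled with Cy3. All hearts were taken on embryonic day 15.5 from mice on a C57BL/6 background, and the knockout is a germline loss, present in every cell. The wild-type channel also carries an adult age among its labels, and the embryonic age, given in the other entries, was used. No array had its dyes swapped, and genotype and dye cannot be told apart. The 3 arrays were separate biological replicates per the study's methods, and their number limits the precision of every value below.

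In a cardiac sarcomere, thin filaments are built from alpha-actin, with tropomyosin lying along the filament as the strand that, together with troponin, sets when myosin can bind. The cytoplasmic actins, beta-actin and gamma-actin, form the cytoskeleton of muscle and non-muscle cells, and tropomyosin genes produce both muscle and cytoplasmic forms by alternative splicing. Tropomodulin and leiomodin act at the pointed end of the filament, where its length is set. LRRC10, the protein whose gene was deleted, is made in cardiomyocytes and carries leucine-rich repeats, and the study asked which transcripts differ before birth when it is lost. The split used here places Actc1, Acta1, Tpm1, Tpm2, Tmod1 and Lmod2 with the sarcomere and Actb, Actg1, Tpm3 and Tpm4 with the cytoplasm. It is a split by gene, not by splice form.

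The probes are 60 bases long, and their sequences decide which family member each could read. The following probes are shown because the brightest members, and the closest pair of probes between genes, are among them. Positions are on mm9, and each sequence is given on the strand of the transcript. The Actc1 probe spans an intron at chr2:113874011-113874934 on the minus strand, and the Acta1 probe lies within 1 block at chr8:126416197-126416256 on the minus strand. One Tpm1 probe (A_51_P325173, chr9:66875959-66877514, minus strand) also crosses an intron, and the capitals mark the 21 bases that it shares with the forward primer of the study's own Tpm1 assay. The study names Tpm1 with its assays of adult hearts, not with those of embryonic hearts.
Actc1 A_51_P149469: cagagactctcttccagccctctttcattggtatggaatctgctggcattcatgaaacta
Acta1 A_51_P246854: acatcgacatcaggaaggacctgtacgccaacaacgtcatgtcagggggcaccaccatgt
Tpm1 A_51_P325173: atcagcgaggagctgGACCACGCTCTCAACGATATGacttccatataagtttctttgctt

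Aligned with each other, probes of different member genes shared little sequence. They were not aligned with the transcripts of other members, so which other transcripts a probe could bind was not tested. Of 142 pairs of probes from different genes, aligned without gaps over at least 20 bases, 1 exceeded 75% identity. That pair was Tpm2 A_52_P418477 (chr4:43532150-43532300, minus strand) and Tpm1 A_52_P532910 (chr9:66880625-66881695, minus strand), with 27 of 33 overlapping bases identical (81.8%). It is shown because Tpm1 was saturated where Tpm2 was not, and capitals mark the identical bases.
Tpm2 A_52_P418477: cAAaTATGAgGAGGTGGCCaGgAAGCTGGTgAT
Tpm1 A_52_P532910: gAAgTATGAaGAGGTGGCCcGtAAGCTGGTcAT
How far Tpm1 transcript binds the Tpm2 probe was not tested. The next pair, between Tpm3 A_51_P462153 and Tpm2 A_52_P315976, matched at 32 of 47 bases (68.1%).

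The targeted gene was read first as a check of the labels, and it went against them. The Lrrc10 probe was brighter in Cy5, which is labelled Lrrc10-/-, on 3 of 3 arrays, with a mean log2 ratio of 4.41 ± 0.40 (SD, n = 3; limma adjusted p = 0.000386). Every direction below is therefore given by channel, with Cy5 (labelled Lrrc10-/-) over Cy3 (labelled wild type), and would turn if the labels were exchanged. All 6 heart muscle markers (Myh6, Tnnt2, Ryr2, Nkx2-5, Myl7 and Myl2) were well above background in both channels on all arrays. Replicate 1 had been scanned on another scanner model (G2505B) than replicates 2 and 3 (G2505C). Per array, 63.9 to 88.9% of gene spots were well above background in Cy5 and 69.3 to 93.2% in Cy3. As these are bulk samples, fewer cells of a type and less RNA per cell cannot be told apart.

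The most abundant sarcomeric members could not be quantified, because their spots had reached the upper limit of the scanner. Saturation means here that the scanner software set its flag, or that the signal came within 1% of the highest one of that channel on the array. Of the 18 probes, 4 were saturated in at least 1 channel on at least 1 array, and 3 of these in both channels on at least 2 arrays. The cardiac alpha-actin gene Actc1, which encodes the main actin of the adult heart, gave Cy5 signals of 65159, 65349 and 65367 scanner units on replicates 1, 2 and 3 against Cy3 signals of 60948, 65474 and 65479, after subtraction of the local background. Cy5 was saturated on 3 of 3 arrays and Cy3 on 2 of 3, so no fold or direction is given for Actc1. Tpm1, the main tropomyosin gene of the heart, was in the same position at A_51_P325173 and A_52_P532910, with Cy5 saturated on 3 of 3 arrays and Cy3 on 2 of 3 for each. On replicate 2 their Cy3 signals were 64766 and 64739, just under the limit. Tpm4, which encodes a mainly cytoplasmic tropomyosin, was saturated in Cy5 on replicate 2 and in both channels on replicate 3. On replicate 1 its signals were 27077 in Cy5 and 19487 in Cy3, and the log2 ratio after loess was 0.17 on that single array. Loess is a normalization that removes the average dye bias at each brightness, but not a dye bias of a single probe. A further Tpm1 probe (A_51_P378371) was not well above background in any channel, with signals from 28.9 to 44.8 in Cy5 and from 25.8 to 32.5 in Cy3, and was not tested.

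**Figure D1:**
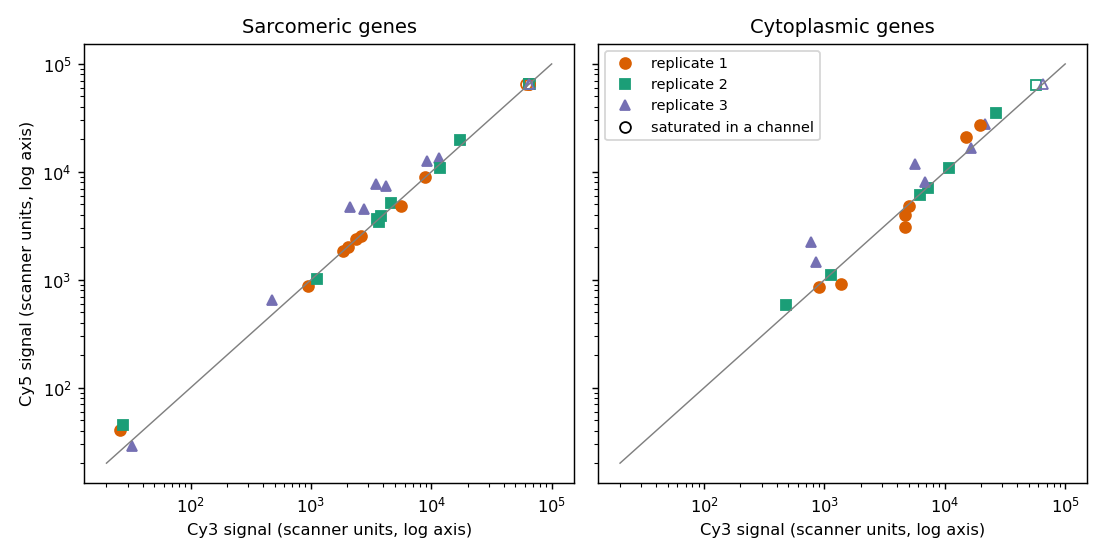
Background-subtracted signal of each thin filament probe in Cy5 (labelled Lrrc10-/-, vertical) against Cy3 (labelled wild type, horizontal), both in scanner units on log axes, for sarcomeric and cytoplasmic genes; each point is 1 probe on 1 array, open points are saturated in at least 1 channel, and the grey line marks equal signals before normalization. Actc1 and both bright Tpm1 probes gather at the upper right corner of the sarcomeric panel, whereas only Tpm4 does so in the cytoplasmic panel.

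No member of the thin filament set passed the test. Of the 18 probes 17 were tested, and 0 were called higher or lower by limma at an adjusted p under 0.05, where 1.39% of all 28326 tested probes were called higher and 0.00353% lower. No member reached an unadjusted p under 0.05 either, where 13.3% of all tested probes did (9.06% higher and 4.26% lower). The 17 include the 4 probes saturated on some array, for which the lack of a call does not show that the channels were alike. The 13 tested probes that were never saturated came from 8 genes, with mean log2 ratios from -0.27 to 0.19 and a median of -0.0096, beside a median of 0.0126 over all tested probes. Of these 13, 1 was above 0 on all 3 arrays and 2 were below 0 on all 3, against 19.3 and 17.6% of all probes with a value on every array, and the other 10 were mixed. In none of the 13 were the 3 Cy5 levels separate from the 3 Cy3 levels, where 5.82% of all probes had separate levels (3.44% with Cy5 above and 2.37% with Cy5 below). The smallest adjusted p was 0.408, for Tpm3. These p-values do not show that the pools were alike: with an SE of 0.11 to 0.31 on the log2 scale, modest differences were not detectable with 3 arrays.

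**Figure D2:**
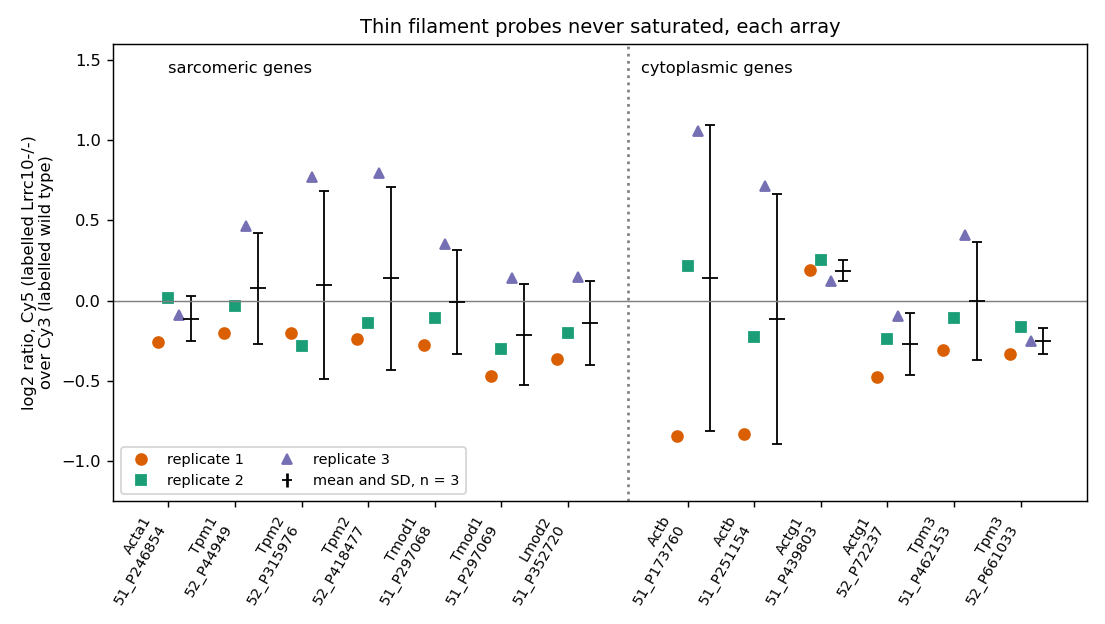
Log2 ratio of Cy5 over Cy3 after loess for the 13 tested probes never saturated, with sarcomeric genes on the left and cytoplasmic genes on the right; symbols are the 3 arrays and bars the mean and SD (n = 3). Replicate 1 lies below 0 for all probes but one of Actg1, and the widest bars are those of both Actb probes, with SDs of 0.95 and 0.78.

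Acta1, the skeletal alpha-actin gene that is also expressed in the developing heart, was the only sarcomeric actin with a never-saturated probe. How far the transcript of Actc1, whose own probe was saturated, binds the Acta1 probe was not tested. On replicates 1, 2 and 3, Cy5 read 8927, 19819 and 13376 and Cy3 read 8832, 17479 and 11657. After loess the log2 ratios were -0.26, 0.016 and -0.091. The ratio was near 0 on replicate 2 and lowest on replicate 1, and the levels of both channels overlapped. The mean was -0.11 ± 0.14 (SD, n = 3; limma adjusted p = 0.732).

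The smooth muscle actins complete the family and were not called either. Acta2, the alpha-actin of vascular smooth muscle and of the early heart, had 3 tested probes that were never saturated, with means of -0.072 ± 0.070, -0.17 ± 0.20 and -0.099 ± 0.24 (SD, n = 3). Its brightest probe was saturated in both channels on replicates 2 and 3. Actg2, the enteric smooth muscle gamma-actin gene, gave -0.31, -0.17 and -0.27, below 0 on all arrays (mean -0.25 ± 0.073, SD, n = 3; limma adjusted p = 0.410).

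Actb, the beta-actin gene and a common reference for other measurements, was the least stable member. Its probe A_51_P173760 (chr5:143665245-143665304, minus strand) stands at 10 spots on each array. Averaged over spots, Cy5 read 907, 582 and 2259 on replicates 1, 2 and 3, and Cy3 read 1378, 480 and 776. Cy5 was the lower channel on replicate 1 and the higher one on replicates 2 and 3. The log2 ratio was -0.84, 0.22 and 1.06, and the mean of 0.14 ± 0.95 (SD, n = 3) did not pass the test (limma adjusted p = 0.881). The SD between arrays stood at the 99.5th percentile of all tested probes, whose median SD was 0.204. The Actb ratio was above 0.0742% of all ratios on replicate 1 and above 98.3% of them on replicate 3.

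Spots of the same array lay closer to each other than replicates 1 and 3 did. The 10 ratios ran from -1.19 to -0.46 on replicate 1, from -0.11 to 0.55 on replicate 2 and from 0.93 to 1.23 on replicate 3. All 10 spots were below 0 on replicate 1 and all 10 above 0 on replicate 3, and the ranges of these 2 arrays did not meet. The SD between spots was 0.29, 0.24 and 0.088, beside medians of 0.192, 0.162 and 0.0549 over the 245 probes with 10 spots. With the signals processed and spatially detrended by the scanner software the spots lay closer together, from -1.07 to -0.83, 0.055 to 0.38 and 1.21 to 1.33. When the arrays were set to a common distribution, the Actb level moved across arrays in both channels, by 2.02 log2 units in Cy5 and 2.84 in Cy3, where the median probe moved by 0.55 and 0.59. At the other Actb probe, described next, the level moved by 0.96 in Cy5 and 0.98 in Cy3. Differences among the pools and among the arrays cannot be told apart in these levels. Without replicate 1, which differs in scanner model and software version, the mean was 0.64, and without replicate 3 it was -0.31, so the direction of Actb rests on which arrays are kept.

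**Figure D3:**
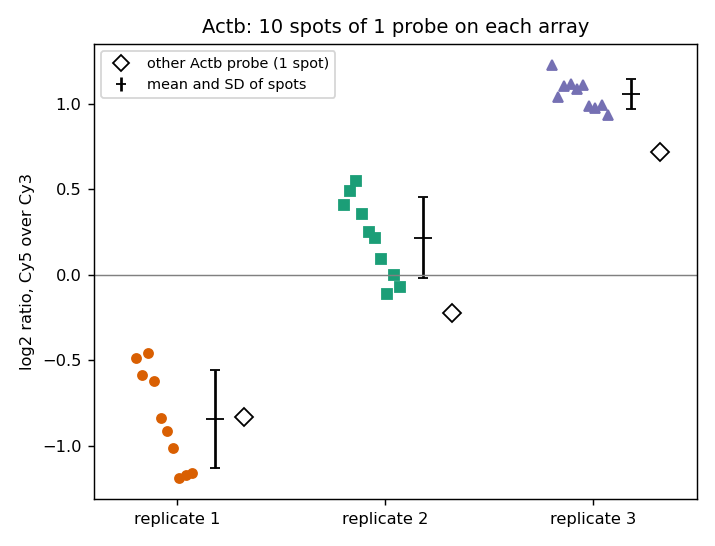
Log2 ratio of Cy5 over Cy3 after loess at each of the 10 spots of Actb probe A_51_P173760 on the 3 arrays (filled symbols, left to right in the order of the file), with the mean and SD of the spots beside them and the single spot of probe A_51_P251154 as an open diamond. All spots lie below 0 on replicate 1 and above 0.93 on replicate 3, and the other probe reads -0.83, -0.23 and 0.72.

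The other Actb probe showed the same order of arrays. A_51_P251154 is placed on chromosome X (chrX:148868817-148868876, plus strand), while the Actb gene lies on chromosome 5, so a related copy may be read and its values are uncertain. Cy5 read 3052, 6040 and 11782 on replicates 1, 2 and 3, and Cy3 read 4626, 6232 and 5637. Cy5 was lower on replicates 1 and 2 and higher on replicate 3. The log2 ratios were -0.83, -0.23 and 0.72, with a mean of -0.12 ± 0.78 (SD, n = 3; limma adjusted p = 0.887). Without replicate 3 the mean was -0.53 with a limma adjusted p of 0.0595.

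Actg1, the cytoplasmic gamma-actin gene, gave ratios of opposite sign at its 2 probes. A_51_P439803 (chr11:120207446-120207505, minus strand) had log2 ratios of 0.19, 0.25 and 0.12, and was the only never-saturated member probe above 0 on all arrays (mean 0.19 ± 0.066, SD, n = 3; limma adjusted p = 0.527). A_52_P72237 (chr11:120208371-120208430, minus strand) had -0.47, -0.24 and -0.094, below 0 on all arrays (mean -0.27 ± 0.19, SD, n = 3; limma adjusted p = 0.417). The first probe exceeded the second by 0.66, 0.49 and 0.22 on replicates 1, 2 and 3, on average 0.46 ± 0.23 (SD, n = 3). With the software's processed signals both means were below 0, at -0.069 and -0.17, and the gap was 0.099 ± 0.11 (SD, n = 3), so the opposite signs depend on the processing. The files assign both probes to the same transcript.

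Tpm1 was readable without saturation only at A_52_P44949. Cy5 read 2402, 5140 and 7400 and Cy3 read 2358, 4637 and 4216, with log2 ratios of -0.20, -0.031 and 0.46 on replicates 1, 2 and 3. Cy5 was clearly the higher channel on replicate 3 alone. The mean was 0.076 ± 0.35 (SD, n = 3; limma adjusted p = 0.872).

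Tpm2, which encodes beta-tropomyosin of striated and smooth muscle, was read by 2 probes that gave nearly the same values. At A_52_P315976, Cy5 read 1867, 3406 and 4697 on replicates 1, 2 and 3, and Cy3 read 1832, 3684 and 2117. At A_52_P418477, Cy5 read 2025, 3917 and 7745, and Cy3 read 2040, 3829 and 3464. Before normalization, both were close to equal in the channels on replicates 1 and 2 and higher in Cy5 on replicate 3. After loess the log2 ratios were -0.20, -0.28 and 0.77 at the first and -0.24, -0.14 and 0.80 at the second. Both were thus below 0 on replicates 1 and 2. The probes differed by 0.042 ± 0.091 (SD, n = 3), far less than the spread between arrays. Neither mean passed the test (0.097 ± 0.59 and 0.14 ± 0.57, SD, n = 3; limma adjusted p = 0.881 and 0.815), and without replicate 3 both turned, to -0.24 and -0.19.

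Tpm3, a gene of slow skeletal muscle and cytoplasmic tropomyosins, differed between its probes on replicate 3. A_51_P462153, which crosses an intron (chr3:89893733-89893942, plus strand), gave log2 ratios of -0.31, -0.11 and 0.41 (mean -0.0033 ± 0.37, SD, n = 3; limma adjusted p = 0.996). A_52_P661033, further along the gene (chr3:89904346-89904405, plus strand), gave -0.33, -0.17 and -0.25. The latter was below 0 on all arrays with a small spread (mean -0.25 ± 0.082, SD, n = 3; limma adjusted p = 0.408). The probes differed by 0.024 and 0.058 on replicates 1 and 2, and by 0.66 on replicate 3.

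At the pointed end, Tmod1, the gene of the tropomodulin that caps cardiac thin filaments, was read by 2 overlapping probes (chr4:46127422-46127479 and chr4:46127384-46127441, plus strand), which are not independent readings. A_51_P297068 had log2 ratios of -0.28, -0.11 and 0.35 (mean -0.0096 ± 0.33, SD, n = 3; limma adjusted p = 0.984). A_51_P297069 had -0.47, -0.30 and 0.14 (mean -0.21 ± 0.32, SD, n = 3; limma adjusted p = 0.581). The gap between them was almost constant over the arrays, at 0.20 ± 0.0095 (SD, n = 3). Lmod2, the gene of a cardiac leiomodin that lengthens thin filaments, gave Cy5 signals of 867, 1023 and 647 against Cy3 signals of 944, 1113 and 475. Its log2 ratios of -0.36, -0.20 and 0.15 followed the same order of arrays as Tmod1. The mean was -0.14 ± 0.26 (SD, n = 3; limma adjusted p = 0.709).

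Sarcomeric and cytoplasmic genes were then set against each other within each array, with the never-saturated probes of a gene averaged first. For actin, Acta1 minus the mean of Actb and Actg1 was 0.23, 0.015 and -0.54 on replicates 1, 2 and 3. The sign turned between arrays, and the mean difference was -0.098 ± 0.40 (SD, n = 3). For tropomyosin, the mean of Tpm1 and Tpm2 minus Tpm3 was 0.11, 0.018 and 0.55, above 0 on 3 of 3 arrays but with the larger part from replicate 3 (mean 0.22 ± 0.28, SD, n = 3). Over all members with such a probe, 5 sarcomeric and 3 cytoplasmic genes, the difference was 0.15, -0.081 and -0.015 (mean 0.018 ± 0.12, SD, n = 3). Each mean difference was smaller than its SD, and the differences were not tested. Without replicate 3 the actin difference turned to 0.12 and the tropomyosin difference was 0.062. Actc1, the bright Tpm1 probes and Tpm4 are missing from these differences because of saturation.

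**Figure D4:**
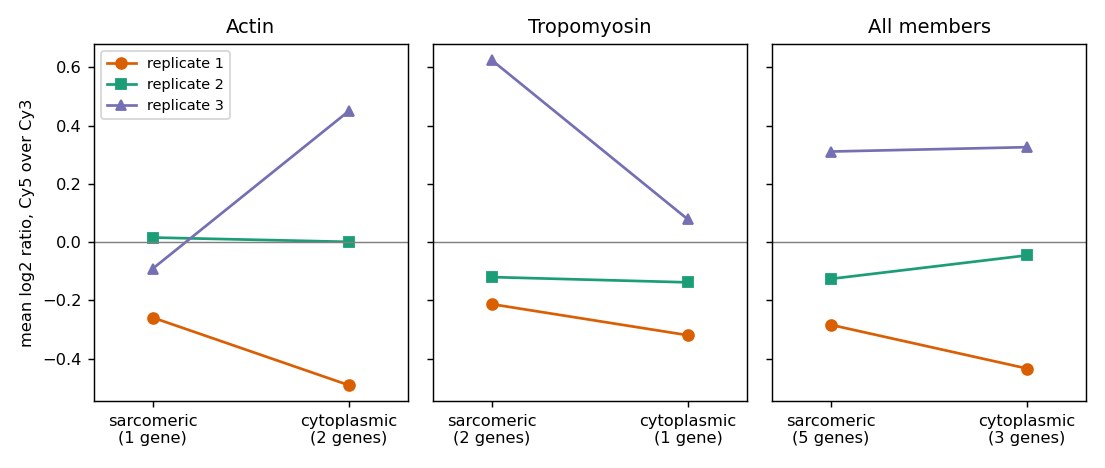
Mean log2 ratio of Cy5 over Cy3 of sarcomeric and cytoplasmic genes on each of the 3 arrays (lines), for actins, tropomyosins and all members with a never-saturated probe. For actins the line of replicate 3 rises to the cytoplasmic side while that of replicate 1 falls, and over all members the sides differ by at most 0.15 while the arrays lie further apart.

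Both classes had their lowest median on replicate 1 and their highest on replicate 3. Of the 7 sarcomeric probes, 0, 1 and 6 were above 0 on replicates 1, 2 and 3, with medians of -0.26, -0.14 and 0.35. Of the 6 cytoplasmic probes, 1, 2 and 4 were above 0, with medians of -0.40, -0.14 and 0.26. Over all tested probes the medians were -0.0083, 0.040 and -0.0036. The order of arrays was not particular to the members. The 32 partner genes described below had medians of -0.12, -0.077 and 0.013, in the same order. The 9 tested thick filament genes had -0.062, 0.15 and -0.14, in another order.

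Markers of other cell types gave the following values on the same arrays, and their part in the member ratios was not tested. Of 8 skeletal muscle markers 6 were tested (Myh8 was saturated and Myf6 was not well above background on all arrays), with median ratios of 0.042, -0.17 and 0.12 and summed signals of 10958 to 33636 in Cy5 and 12808 to 34618 in Cy3. All 6 fibroblast markers were tested, with medians of -0.071, 0.038 and 0.022 and sums of 67199 to 167063 in Cy5 and 64717 to 149698 in Cy3. All 6 smooth muscle markers were tested, with medians of -0.098, -0.12 and -0.15 and sums of 82584 to 150223 in Cy5 and 86645 to 152757 in Cy3. Of 5 liver markers 3 were tested, with medians of 0.81, -2.74 and 0.33 and sums of 3010 to 16868 in Cy5 and 1633 to 38312 in Cy3, and replicate 2 stood apart in them. All 5 macrophage markers were tested, with medians of -0.21, -0.34 and 0.14 on replicates 1, 2 and 3, and sums of 11424 to 40141 in Cy5 and 10378 to 46776 in Cy3. The macrophage median was thus below 0 on replicates 1 and 2 and above 0 on replicate 3. Of the macrophage genes only C1qa was so (-0.51, -0.58 and 0.53). In other lists, Ckm (skeletal muscle; -0.47, -0.26 and 0.83) and Col3a1 (fibroblast; -0.093, -0.030 and 0.070) had the same signs. These genes were named after their values were seen. Csf1r was above 0 on all arrays, Cd68 and Lyz2 were below 0 on all, and Cd14 was below 0 on replicate 1 alone. The medians were -0.018, -0.44 and -0.16 for 5 erythroid markers (sums of 68883 to 73160 in Cy5 and 56263 to 75381 in Cy3), and -0.052, 0.13 and -0.31 for 5 endothelial markers (8832 to 19211 in Cy5 and 6415 to 17866 in Cy3). The 5 heart muscle markers with a tested probe had medians of -0.10, 0.15 and -0.24 (sums of 111815 to 160082 in Cy5 and 95803 to 156415 in Cy3). Saturated probes entered 3 of these lists. Hba-a1 (erythroid) and Myl7 (heart muscle) were saturated in Cy5 on 3 arrays and in Cy3 on 2. Acta2 (smooth muscle) was saturated in both channels on 2 arrays, and Myh6 (heart muscle) in Cy3 on 1. The sums of these lists are held down by the scanner limit and do not measure stable cell content.

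The proteins that bind, cap, cut or regulate thin filaments were read from a list of 32 genes. All 32 were tested with 1 probe each, and 0 were called in either direction, against the shares of 1.39 and 0.00353% given above. Ratios were above 0 for 14 and below 0 for 18, with a median of -0.036, where 14898 of all tested probes were above and 13428 below 0. The probes of 8 of these genes were saturated in a channel on some array, and without them 12 were above and 12 below 0, with a median of -0.012. At an unadjusted limma p under 0.05, 1 was higher and 2 were lower, where 9.06% of all tested probes were higher and 4.26% lower. The gene with the lowest p on the higher side was Xirp2, of an actin-binding repeat protein of heart and skeletal muscle, with 1.45, 0.70 and -0.052 on replicates 1, 2 and 3 (mean 0.70 ± 0.75, SD, n = 3; limma adjusted p = 0.300). On the lower side it was Cfl2, the muscle cofilin gene, whose protein severs actin filaments, with -0.64, -0.25 and -0.18 (mean -0.36 ± 0.25, SD, n = 3; limma adjusted p = 0.321). Neither passed the test. The other gene under that unadjusted threshold on the lower side, named after its value was seen, was the slow skeletal troponin T gene Tnnt1, with a mean of -0.54 ± 0.66 (SD, n = 3; limma adjusted p = 0.373) that includes 1 array on which its Cy5 signal was saturated.

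The thick filament, the myosin counterpart in the sarcomere, was read from 12 genes. Of these, 9 had a tested probe that was not saturated in both channels on all arrays. Of the 9, 0 were called, where 1.39% of all tested probes were called higher and 0.00353% lower. With 9 genes, 0 calls cannot be told apart from those shares. The median of the 9 was 0.030, or 0.046 over the 5 whose probe was never saturated. Myom2, an M-band gene, had the lowest p on the higher side, with 0.47, 0.82 and 0.36 on replicates 1, 2 and 3 (mean 0.55 ± 0.24, SD, n = 3; limma adjusted p = 0.143). Myh6, the alpha-myosin heavy chain gene, had the lowest p on the lower side, with a mean of -0.21 ± 0.35 (SD, n = 3; limma adjusted p = 0.592) that includes 1 array on which its Cy3 signal was saturated. Neither passed the test. The difference between the thin and the thick filament was not tested.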

How the data were processed

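The deposited scanner files hold spot intensities of a whole-mouse-genome Agilent array. Per the file headers, they were extracted by the authors with Feature Extraction 9.1.3.1 (replicate 1) or 10.7.3.1 (replicates 2 and 3), while the submitters' notes name another version. The deposited log10 ratios, of processed Cy5 over processed Cy3, equal the series table and served as an alternative.

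Mean signals were corrected by normexp on the median local background (offset 50), normalized by loess within arrays with control spots at weight 0, and tested against 0 in limma 3.58.1 (R 4.3.3; lmFit, eBayes, two-sided, Benjamini-Hochberg over all tested probes, threshold 0.05). Non-uniform spots were dropped and spots of a probe averaged. Tested probes had at least 1 channel that was well above background on every array. Saturated spots were kept, but no fold is given where both channels were saturated. The procedure was first tested on simulated data.

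All member probes are named. From the partner and thick filament lists, called genes and, where there were none, the lowest p in each direction are named. Lists use 1 probe per gene, that of highest mean intensity. Symbols were updated through RefSeq (GRCm38.p6; 26888 of 27808 accessions matched). Levels set across arrays were quantile-normalized on average intensity (Aquantile). The members and lists were chosen with earlier results of these data known.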

Additional observations from a re-analysis of the deposited data

How the results depend on the processing

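Under the 16 alternatives (background, normalization, scaling, filters, variance model, software version as a block, saturated or non-uniform spots, the methods' t-test and leaving out each replicate), 0 member probes were called in either direction. With the processed signals, the series table, scaled ratios or the methods' t-test, 0 of all tested probes were called. Without background correction or with the software block, 1 was. The lack of a member call in those alternatives says nothing about the members. Of 208 combinations of a never-saturated member probe with an alternative, 187 kept the direction and 21 reversed it. With the software's processed signals and with the series table, Actb A_51_P251154 turned to 0.014, Actg1 A_51_P439803 to -0.069 and Lmod2 to 0.016. With ratios scaled between arrays, Actb A_51_P251154 turned to 0.066, Tpm3 A_51_P462153 to 0.090 and Tmod1 A_51_P297068 to 0.072. Tpm3 A_51_P462153 was 0.0027 without background correction, Tpm2 A_52_P315976 was -0.041 with arrayWeights, and Actb A_51_P173760 was -0.10 with the software version as a block. Leaving out 1 replicate gave ranges of -0.31 to 0.64 for Actb A_51_P173760, -0.53 to 0.24 for Actb A_51_P251154, -0.12 to 0.22 for Tpm1 A_52_P44949, -0.24 to 0.29 for Tpm2 A_52_P315976, -0.19 to 0.33 for Tpm2 A_52_P418477, -0.21 to 0.15 for Tpm3 A_51_P462153 and -0.19 to 0.12 for Tmod1 A_51_P297068. The causes were not tested.

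Over all probes, 395 were called higher, but 0 with the processed signals, the series table, scaled ratios or the methods' t-test, 1 without background correction or with the software block, 145 without a filter, and 1 to 1555 with 1 replicate left out. The count called lower was 1, but 0 with the processed signals, the series table, no background correction, scaled ratios, no filter, the methods' t-test or the software block, 2 with median centring, 3 with an intensity trend, 5 with saturated spots left out, 11 with arrayWeights, and 0 to 248 with 1 replicate left out. Lrrc10 was higher throughout, but its adjusted p was 0.270 with processed signals or the series table (5.21), 0.424 with scaled ratios (4.62) and 0.504 with the methods' t-test (4.41). The mean of Acta2 and Actg2, never-saturated probes, was -0.18 and moved to -0.25 with median centring, an alternative chosen for them after seeing the data. Differences between sarcomeric and cytoplasmic genes and list medians moved by less than their SD between arrays, but several changed sign or size. The actin difference ranged from -0.26 to 0.12 with 1 replicate left out. That of tropomyosin ranged from 0.062 to 0.33, and was 0.059 with saturated probes kept and 0.36 with 1 probe per gene. That of all members ranged from -0.048 to 0.067, and was -0.053 with saturated probes kept and -0.033 with saturated spots left out. The partner median was 0.0088 with saturated spots left out, and -0.012 without genes whose probe was saturated, chosen after seeing the data. The thick filament median was -0.0034 with processed signals or the series table, -0.049 with median centring, -0.019 with scaled ratios and -0.044 without replicate 2.

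The ratios within arrays pair the channels already. Saturation limits Actc1, Tpm1 and Tpm4, and 3 arrays limit the rest.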
